A study of Mus musculus with 8 samples.

Results

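Integrins and laminins join the muscle fiber to the sheet of matrix that wraps it. An integrin is a pair of one α and one β chain that spans the cell membrane, binds matrix outside and ties to the actin cytoskeleton inside. A laminin is a cross-shaped trimer of one α, one β and one γ chain, and its α chain carries most of the sites that receptors bind. In adult muscle the fiber's main laminin receptor pairs integrin α7 with β1 and its laminin is built on the α2 chain, whereas laminins with α4 or α5 chains lie around blood vessels and integrin α1, a collagen receptor, is found on vessel and stromal cells. Loss of laminin α2 causes a congenital muscular dystrophy.

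The genes described here are 10 members of these 2 families, found by symbol among the 27041 rows of a table of RNA-seq read counts. They are *Itga7* and *Lama2* as fiber subunits, *Itga1* and *Lama4* as vessel and stromal subunits, and *Itga5*, *Itga6*, *Itgb1*, *Lama5*, *Lamb1* and *Lamc1*. Each had 1 row, and the members carried from 255 to 8914 reads per library. The libraries came from muscle of male C57BL/6J mice aged 9 weeks, gastrocnemius according to the methods, and the labels say only skeletal muscle. Ctrl mice carried LSD1 L2/L2 alleles, in which loxP sites flank exon 1 of *Kdm1a*, the gene of the demethylase LSD1. LSD1skm-/- mice carried the same alleles with the HSA-Cre transgene, which acts in myofibers, so other cells of the muscle kept LSD1. Counts were read for 6 libraries, Ctrl replicates 1 to 4 and LSD1skm-/- replicates 1 and 2, with 30654828 to 41278769 reads each, and 2 further LSD1skm-/- libraries of the 8 labelled were not analysed here.

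*Kdm1a*, the targeted gene, was at 21.91 to 27.98 CPM (read counts per fixed number of reads of the library, scaled between libraries with edgeR's TMM method) in Ctrl replicates 1 to 3. It was at 2.95 and 3.47 CPM in the LSD1skm-/- libraries. The library labelled Ctrl replicate 4 had 3.65 CPM, which goes against its label. Results are therefore given by the labels, 4 Ctrl against 2 LSD1skm-/- libraries, and again without that library, 3 against 2. Myofiber markers were high in all libraries, with a summed level of 166400 to 200600 CPM over 10 genes such as *Acta1* and *Ckm*.

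In the GRCm38 build (mm10), *Itga7* lies on chromosome 10, plus strand, from 128933818 to 128958282, and *Lama2* on the minus strand of the same chromosome from 26980036 to 27619758. *Itga1* lies on the minus strand of chromosome 13 from 114953096 to 115101964, *Lama4* on the plus strand of chromosome 10 from 38965515 to 39110188, and *Lamb1* on the plus strand of chromosome 12 from 31265234 to 31329644. Few reads of these genes could be shared with another gene. In *Itga6* 5.31% of the 50-base stretches of its transcripts also occurred in transcripts of other genes, in *Lama2* 3.28%, in *Itga1* 3.27% and in *Itga7* 0.207%, and there were none in the other 6. Exons of *Gm48084* overlap 3.86% of the merged exons of *Lama2* on the opposite strand, and exons of *Gm49395* overlap 3.68% of those of *Itga1* on the same strand.

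Promoter sequences from RefSeq (GRCm38.p6) were found for 6 of the 10 genes, *Lama2*, *Itga1*, *Itga5*, *Itgb1*, *Lama5* and *Lamb1*. Shown are the 250 bases before the transcription start that RefSeq gives, for a fiber gene, a vessel and stromal gene, and the member with the highest fold change, from 5′ to 3′ of the gene. They are *Lama2* (minus strand, chr10:27616943-27617192), *Itga1* (minus strand, chr13:115101965-115102214) and *Lamb1* (plus strand, chr12:31265043-31265292). Capitals mark GGGCGG, the GC box bound by Sp factors, on either strand, CAGCTG, an E-box form that myogenic factors bind, and TATAAA on either strand.
Lama2: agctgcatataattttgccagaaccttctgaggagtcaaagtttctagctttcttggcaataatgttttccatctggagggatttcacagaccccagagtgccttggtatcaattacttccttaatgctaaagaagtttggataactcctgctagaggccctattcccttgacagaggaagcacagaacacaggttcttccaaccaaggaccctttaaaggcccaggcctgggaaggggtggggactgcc
Itga1: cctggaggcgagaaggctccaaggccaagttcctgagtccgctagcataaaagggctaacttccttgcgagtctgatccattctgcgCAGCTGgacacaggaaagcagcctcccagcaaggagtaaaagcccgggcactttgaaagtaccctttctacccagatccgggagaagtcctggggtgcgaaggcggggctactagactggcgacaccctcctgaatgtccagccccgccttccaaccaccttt
Lamb1: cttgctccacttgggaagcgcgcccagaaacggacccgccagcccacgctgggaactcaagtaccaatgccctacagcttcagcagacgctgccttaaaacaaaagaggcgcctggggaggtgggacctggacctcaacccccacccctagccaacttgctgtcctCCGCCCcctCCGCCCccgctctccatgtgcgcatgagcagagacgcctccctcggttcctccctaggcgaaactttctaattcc
RefSeq and GENCODE starts can differ, so the *Lama2* stretch lies inside the gene given above and the *Lamb1* stretch runs into it. The *Lama2* stretch held 0 CpG dinucleotides and none of these motifs, with 47.2% G and C. The *Itga1* stretch held 10 CpG and 1 CAGCTG, and that of *Lamb1* 14 CpG and 2 GC boxes. In all 32851 promoters of that table the median was 6 CpG and 52.4% G and C, and 32.7% held GGGCGG, 13% CAGCTG and 12.4% TATAAA, counted in the same 250 bases. The remaining 3 entries, of *Itga5*, *Itgb1* and *Lama5*, held 2, 1 and 4 GC boxes. These matches describe letters only, since no binding data were analysed here.

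Among the 10 genes *Itgb1* had the highest level per length, both in Ctrl and in LSD1skm-/- muscle. It encodes the β1 chain that pairs with every integrin α chain in this set. Its level was 49.1 ± 0.971 CPM per kilobase of merged exons in Ctrl (SD, n = 4) and 47.3 ± 0.866 in LSD1skm-/- muscle (SD, n = 2). On the same scale *Lamc1*, the γ1 chain common to most laminins, was at 10.8 ± 0.781 in Ctrl and *Itga7* at 9.12 ± 1.11. The other 7 genes were between 1.149, for *Itga1*, and 2.95, for *Lama5*. The SDs of *Lamc1* and *Itga7* overlapped, and their order depended on the length used, with *Itga7* at 18.4 and *Lamc1* at 11.7 CPM per kilobase of the longest transcript. Below them the order was *Lama5*, *Lamb1*, *Itga6*, *Itga5*, *Lama2*, *Lama4* and *Itga1*. Neighbours in it overlapped within their SDs, except that *Lama2* at 1.84 ± 0.144 stood above *Lama4* at 1.196 ± 0.194, and it too changed with the longest transcript as the length.

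No member passed an adjusted p-value of 0.05 between the groups by the labels, and none did without the library labelled Ctrl replicate 4 (quasi-likelihood test of edgeR, adjusted over all rows tested by the method of Benjamini and Hochberg). The share of all rows that passed was 0% of 11364 by the labels and 5.27% of 11200 without that library. By an unadjusted p-value under 0.05, 0 of the 10 members passed by the labels, where 8.9% of all rows did. Without that library 2 members passed, *Itga7* and *Lamb1*, against 20.1% of all rows. With the fold change limits of the methods added (above 1.3 or below 0.77), the counts were 0 members against 6.31% of rows by the labels, and 1 member, *Lamb1*, against 15% of rows without that library. CPM of the groups did not overlap for 0 members by the labels, against 17.8% of rows. It did not overlap for 3 members without that library, namely *Itga7*, *Lamb1* and *Lamc1*, against 37.6% of rows. The members' median log2 fold change was -0.013 by the labels, beside -0.008 over all rows, and 0.082 without that library, beside -0.005. Each of these shares of the 10 genes was at or under that of all rows.

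**Figure D1:**
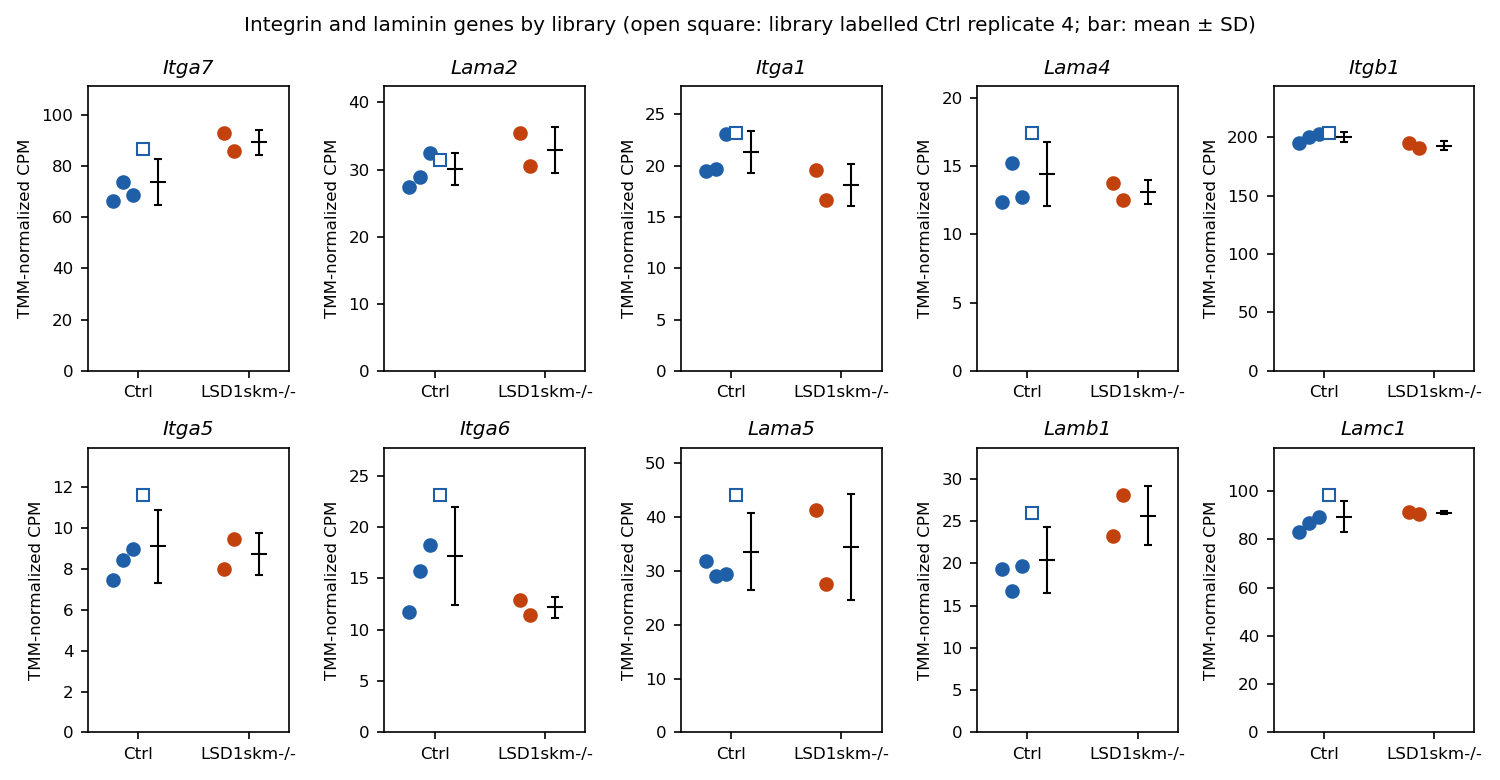
TMM-normalized CPM (vertical axis, starting at 0) of the 10 integrin and laminin genes in each library, Ctrl in blue and LSD1skm-/- in orange, with the mean ± SD of each group as a bar and the library labelled Ctrl replicate 4 as an open square. The *Itga7* points of LSD1skm-/- muscle, 92.64 and 85.75, lie above Ctrl replicates 1 to 3 and beside the square at 86.46.

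*Itga7* encodes the α chain of the fiber's laminin receptor. Its level was 66.23, 73.86, 68.69 and 86.46 CPM in the 4 Ctrl libraries in order of replicate number, and 92.64 and 85.75 CPM in the LSD1skm-/- libraries. The groups overlapped only through the library labelled Ctrl replicate 4. By the labels the log2 fold change was 0.27 (standard error 0.13, 95% interval -0.03 to 0.57, adjusted p = 0.559, edgeR). Without that library it was 0.36 (standard error 0.10, 95% interval 0.13 to 0.60, adjusted p = 0.0934, edgeR), and DESeq2 put the adjusted p-value of this last difference at 0.0327.

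*Lama2*, the α2 chain of the laminin around fibers, was at 27.39, 28.88, 32.52 and 31.44 CPM in Ctrl and at 35.38 and 30.49 CPM in LSD1skm-/- muscle. One LSD1skm-/- library lay above all Ctrl libraries and the other among them. Its log2 fold change was 0.13 by the labels (95% interval -0.14 to 0.40, adjusted p = 0.716, edgeR) and 0.16 without the library labelled Ctrl replicate 4. By the labels it was 0.016 without LSD1skm-/- replicate 1 and 0.236 without LSD1skm-/- replicate 2.

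*Itga1*, the α chain of a collagen receptor, stood at 19.48, 19.72, 23.10 and 23.14 CPM in Ctrl and at 19.58 and 16.68 CPM in LSD1skm-/- muscle. The LSD1skm-/- values were at the lower end of the Ctrl range or under it. By the labels the log2 fold change was -0.24 (standard error 0.13, 95% interval -0.54 to 0.06, adjusted p = 0.585, edgeR), and without the library labelled Ctrl replicate 4 it was -0.19. With LSD1skm-/- replicate 1 or 2 left out it was -0.362 or -0.125 by the labels.

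*Lama4*, the laminin α chain of small vessels, had 12.35, 15.24, 12.75 and 17.37 CPM in Ctrl and 13.73 and 12.49 CPM in LSD1skm-/- muscle, both within the Ctrl range. The log2 fold change was -0.14 (95% interval -0.52 to 0.24, adjusted p = 0.79, edgeR) by the labels. It was -0.03 without the library labelled Ctrl replicate 4, and 0.03 there with scaling by library size, so its sign was not fixed.

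*Lamb1*, the β1 chain that joins laminins of fibers and vessels alike, was at 19.28, 16.74, 19.63 and 25.95 CPM in Ctrl and at 23.22 and 28.08 CPM in LSD1skm-/- muscle. As for *Itga7*, the library labelled Ctrl replicate 4 fell among the LSD1skm-/- values and the other Ctrl libraries below them. The log2 fold change was 0.33 by the labels (standard error 0.18, 95% interval -0.09 to 0.75, adjusted p = 0.584, edgeR) and 0.186 when LSD1skm-/- replicate 2 was left out. Without that library it was 0.47 (standard error 0.13, 95% interval 0.17 to 0.77, adjusted p = 0.0921, edgeR), the highest of the members, and the adjusted p-value was 0.0427 in DESeq2, 0.0426 in edgeR with scaling by library size and 0.0222 with no filter on low counts.

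*Lamc1* was at 83.26 to 98.43 CPM in Ctrl and at 91.57 and 90.71 CPM in LSD1skm-/- muscle, with a log2 fold change of 0.03 by the labels (95% interval -0.21 to 0.27, edgeR). *Itgb1* varied least, from 194.7 to 203.2 CPM in Ctrl and at 195.4 and 190.4 CPM in LSD1skm-/- muscle, with a log2 fold change of -0.05 (95% interval -0.27 to 0.16, edgeR). For these 2 chains, the ones common to most of the complexes, the interval by the labels was narrower than for any other member.

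*Itga6*, the α chain of a laminin receptor of endothelial and satellite cells, had the lowest fold change. It was at 11.69, 15.67, 18.27 and 23.12 CPM in Ctrl and at 12.92 and 11.43 CPM in LSD1skm-/- muscle. The Ctrl libraries were wide apart, and their lowest lay between the LSD1skm-/- values. The log2 fold change was -0.50 by the labels (standard error 0.25, 95% interval -1.08 to 0.08, adjusted p = 0.569, edgeR) and -0.32 without the library labelled Ctrl replicate 4. *Itga5*, the α chain of the fibronectin receptor, was at 7.45 to 11.61 CPM in Ctrl and at 8.01 and 9.47 CPM in LSD1skm-/- muscle, and its log2 fold change went from -0.06 by the labels to 0.08 without that library. *Lama5*, the α chain of a vessel laminin, differed most between the LSD1skm-/- libraries, with 41.32 and 27.47 CPM against 29.03 to 44.07 CPM in Ctrl. Its log2 fold change of 0.03 by the labels became -0.29 without LSD1skm-/- replicate 1.

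**Figure D2:**
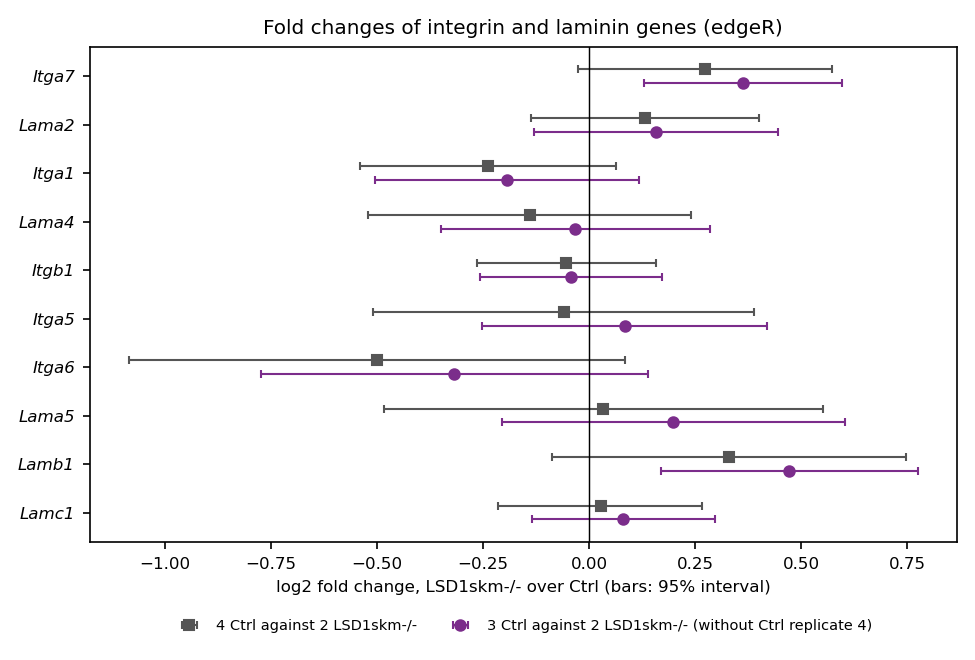
Log2 fold change of LSD1skm-/- over Ctrl muscle (horizontal axis) for each gene, with its 95% interval from edgeR's fit, by the labels (grey squares, 4 against 2 libraries) and without the library labelled Ctrl replicate 4 (purple circles, 3 against 2). The intervals of *Itga7* and *Lamb1* lie above 0 only in the second comparison, and that of *Itga6*, from -1.08 to 0.08 by the labels, is the widest.

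Fiber and vessel subunits were next compared within each library, as the ratio of a fiber gene to its vessel and stromal counterpart, in which the scaling between libraries cancels apart from a prior count of 2. The log2 ratio of *Itga7* over *Itga1* CPM was 1.763, 1.90, 1.57 and 1.90 in Ctrl and 2.24 and 2.36 in LSD1skm-/- muscle. Both LSD1skm-/- libraries lay above every Ctrl library, the one labelled Ctrl replicate 4 included. The mean was 1.78 ± 0.16 in Ctrl (SD, n = 4) and 2.30 ± 0.08 in LSD1skm-/- muscle (SD, n = 2), a difference of 0.52 or 1.43-fold, with p = 0.067 in an exact two-sided permutation test over libraries (0.13 adjusted over the 2 ratios). That is the smallest p-value which 4 against 2 libraries allow, so the test could not pass 0.05. Without the library labelled Ctrl replicate 4 the difference was 0.55, again at the smallest value the test allows (exact permutation p = 0.1, 3 against 2).

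The log2 ratio of *Lama2* over *Lama4* was 1.145, 0.92, 1.35 and 0.85 in Ctrl and 1.36 and 1.28 in LSD1skm-/- muscle. Ctrl replicate 3 lay between the LSD1skm-/- libraries, so the groups overlapped. The difference of the means was 0.26 (exact two-sided permutation p = 0.2 and 0.2 adjusted, 4 against 2), and 0.19 without the library labelled Ctrl replicate 4 (exact permutation p = 0.3, 3 against 2). It was 0.08 when Ctrl replicate 2 was left out as well.

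**Figure D3:**
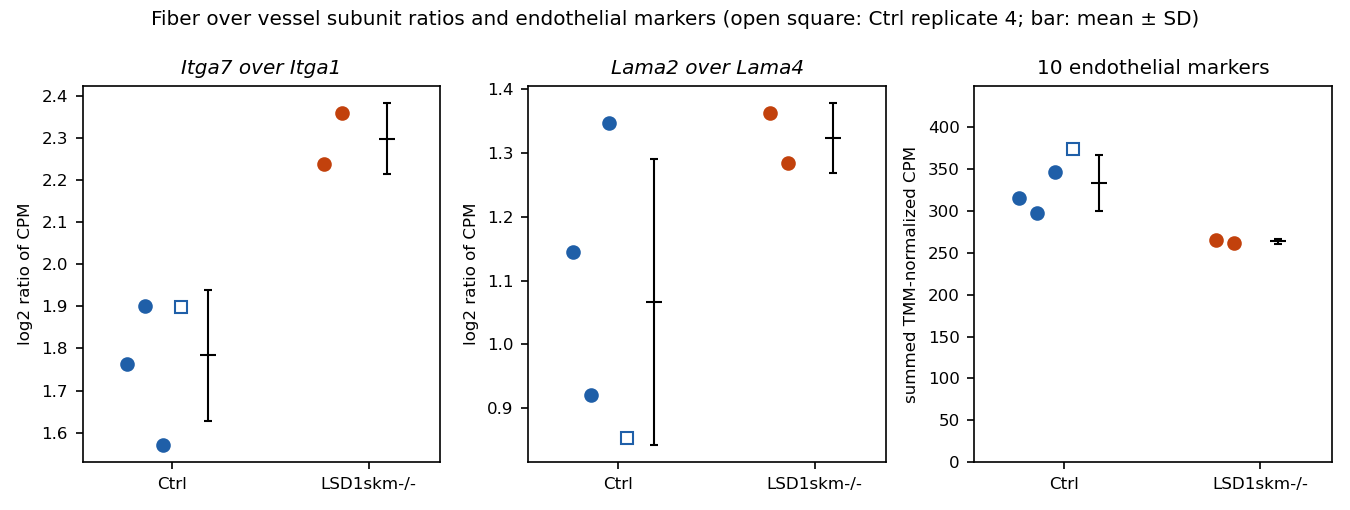
Log2 ratio of CPM of *Itga7* over *Itga1* and of *Lama2* over *Lama4*, and the summed TMM-normalized CPM of 10 endothelial markers, for each library, with the mean ± SD of each group and the library labelled Ctrl replicate 4 as an open square. The first ratio separates the LSD1skm-/- libraries (2.24 and 2.36) from all Ctrl libraries (1.57 to 1.90), the second does not, and the marker sum is lower in the LSD1skm-/- libraries; the ratio axes do not start at 0.

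As shares per length, *Itga7* made up 62.5% to 68% of the 4 integrin α genes in Ctrl and 73.6% and 72.2% in LSD1skm-/- muscle. *Itga6* made up 10.8% to 15.2% in Ctrl and 9.2% and 8.63% in LSD1skm-/- muscle, and *Itga1* 7.39% to 9.15% and then 6.77% and 6.11%. For each of these 3 genes the LSD1skm-/- shares lay outside the Ctrl range, also with the longest transcript as the length. Their CPM overlapped between the groups by the labels, whereas that of 17.8% of all rows did not. *Itga5* had 12.5% to 14% in Ctrl and 10.4% and 13.1% in LSD1skm-/- muscle. Among the 3 laminin α genes, *Lama2* had 26.6% to 35.4% in Ctrl and 31.2% and 35.1% in LSD1skm-/- muscle, *Lama4* 18.6% to 22.6% and then 16.4% and 19.5%, and *Lama5* 45.7% to 53.5% and then 52.3% and 45.4%. These shares are descriptions with no test, since a share that is higher lowers the others.

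**Figure D4:**
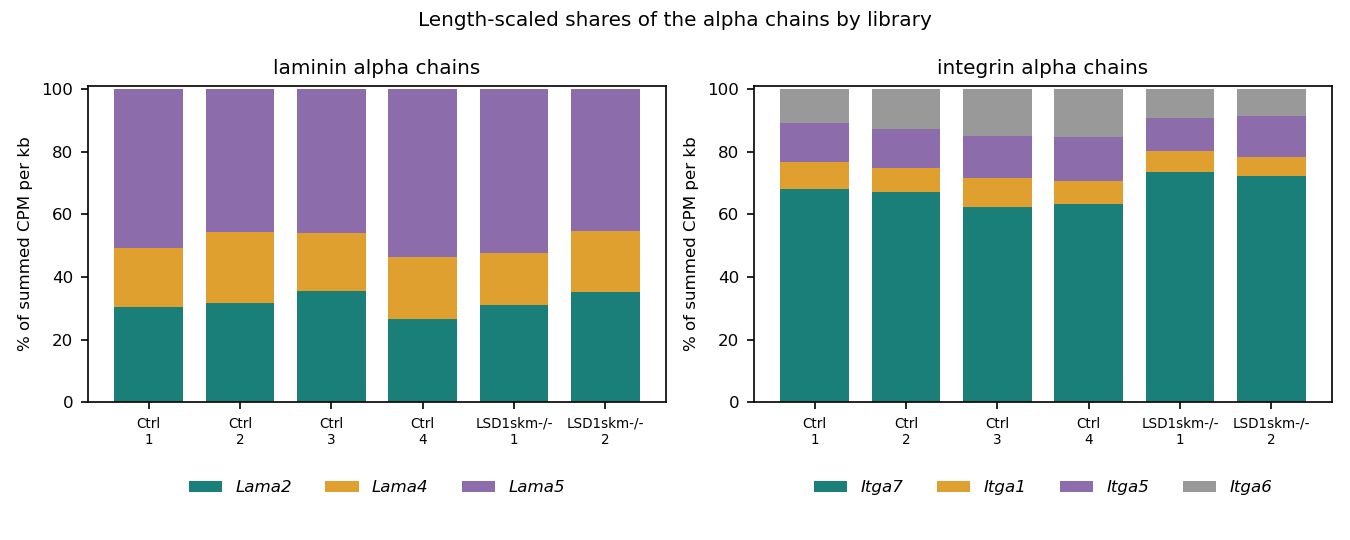
Share of each gene in the summed CPM per kilobase of merged exons (vertical axis, percent) of the 3 laminin α genes and the 4 integrin α genes, 1 bar per library. The *Itga7* part of the integrin bars is 73.6% and 72.2% in the LSD1skm-/- libraries and 62.5% to 68% in Ctrl, while the *Lama2* part of the laminin bars is 31.2% and 35.1% against 26.6% to 35.4%.

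Summed levels of markers of other cell types differed between libraries. In bulk muscle, fewer cells of a type and less RNA per cell cannot be told apart. All 10 endothelial markers had a negative log2 fold change both by the labels (median -0.32) and without the library labelled Ctrl replicate 4 (median -0.24), with none past an adjusted p-value of 0.05 in edgeR. Their summed level was 297.5 to 373.8 CPM in Ctrl and 265.6 and 261.5 CPM in LSD1skm-/- muscle. The highest sum, 373.8 CPM, was in the library labelled Ctrl replicate 4, farthest from the LSD1skm-/- libraries. None of the 10 was at 0 in any library. Of the members tied above to vessels, *Itga1*, *Itga6* and *Lama4* had negative log2 fold changes in both comparisons and *Lama5* positive ones, of 0.03 and 0.20. The 8 pericyte and smooth muscle markers summed to 327.2 to 479.6 CPM in Ctrl and to 380.4 and 338.8 CPM in LSD1skm-/- muscle, so those groups overlapped, and 8 of 8 had a negative log2 fold change by the labels but 6 of 8 without that library. All 8 fibroblast markers had a positive log2 fold change (median 0.35 by the labels). Their sum was at 480.4 to 519.4 CPM in Ctrl replicates 1 to 3, at 748.1 CPM in the library labelled Ctrl replicate 4 and at 663.1 and 782.5 CPM in LSD1skm-/- muscle, the same order of libraries as *Lamb1*. Without that library 2 of the 8, *Col3a1* and *Lum*, rose past an adjusted p-value of 0.05 in edgeR, as 5.27% of all rows did in either direction. The 6 satellite cell markers, at 35.67 to 55.79 CPM in Ctrl and 50.28 and 46 CPM in LSD1skm-/- muscle, and the 7 immune markers, at 57.1 to 154.1 CPM and then 89.15 and 135.2 CPM, overlapped between the groups. So did the 6 Schwann markers, at 47.19 to 165.6 CPM and then 57.29 and 95.88 CPM. The 6 adipocyte markers summed to 167.5 to 405.9 CPM in Ctrl and to 163.7 and 169.9 CPM in LSD1skm-/- muscle. Most of each sum was 1 gene, *Fabp4*, at 165.3 to 353.3 CPM in Ctrl and at 162.9 and 168.3 CPM in LSD1skm-/- muscle. All 5 markers that were tested had a negative log2 fold change (median -4.91 by the labels), with *Fabp4* at -0.56. Of the others, *Adipoq* was at 12.8, 9.68, 0.781 and 19.5 CPM in Ctrl and at 0.126 and 0.557 CPM in LSD1skm-/- muscle, so Ctrl replicate 3 was low as well. None of the listed markers had 0 reads in any library. The 5 blood markers were at 28.08 to 52.1 CPM in Ctrl and at 63.95 and 65.65 CPM in LSD1skm-/- muscle, with *Hbb-bs* and *Alas2* past the adjusted threshold without that library, beside the same 5.27% of all rows. *Alas2* had 37 to 39 reads in Ctrl replicates 1 to 3 and 69 and 76 in the LSD1skm-/- libraries. Its mean count was above 50 in that comparison only through the LSD1skm-/- libraries, so the filter favoured its call. The part of any of these in the values of the integrin and laminin genes was not tested.

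Other genes of the 2 families gave 1 call, without the library labelled Ctrl replicate 4, where 5.27% of all rows passed. Of 22 further integrin genes 21 were in the table, 10 were tested by the labels and 9 without the library labelled Ctrl replicate 4, and 1 of these, *Itga3*, rose in the second comparison. *Itga3*, the α chain of another laminin receptor, was at 3.81, 4.76, 5.46 and 9.46 CPM in Ctrl and at 8.74 and 8.22 CPM in LSD1skm-/- muscle, so the library labelled Ctrl replicate 4 was the highest of all 6. Its log2 fold change was 0.52 by the labels (standard error 0.33, adjusted p = 0.63, edgeR) and 0.86 without that library (standard error 0.18, adjusted p = 0.04, edgeR). The call without it was lost when any one of Ctrl replicates 1 and 2 or the LSD1skm-/- replicates was also left out, with adjusted p-values of 0.0766 to 0.179. *Itgav*, the α chain of vitronectin and fibronectin receptors, was at 24.96 to 30.53 CPM in Ctrl and at 41.36 and 39.16 CPM in LSD1skm-/- muscle. It was 1 of 3 among the 10 further integrins tested by the labels whose groups did not overlap, against 17.8% of all rows. Another of the 3, *Itgae*, had a mean count above 50 only through the LSD1skm-/- libraries, so the filter favoured its place in that count. The log2 fold change of *Itgav* was 0.48 by the labels (standard error 0.11, adjusted p = 0.557, edgeR) and 0.52 without that library (adjusted p = 0.0523, edgeR), where DESeq2 gave an adjusted p-value of 0.00702. *Itgb5*, a β chain that pairs with it, was at 0.08 on the log2 scale by the labels.

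Of the 6 further laminin genes 5 were tested and none passed, by the labels or without the library labelled Ctrl replicate 4. *Lamb2*, the laminin β2 chain, was at 98.81 to 137.7 CPM in Ctrl and at 123.7 and 124.4 CPM in LSD1skm-/- muscle. Its log2 fold change was 0.14 by the labels and 0.26 without that library (adjusted p = 0.228, edgeR).

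Among 24 partners of integrins inside the cell, 21 were tested and 1 fell, without the library labelled Ctrl replicate 4, where 5.27% of all rows passed. *Flnc*, which encodes filamin C, an actin crosslinker of fiber attachments and Z-discs, was at 942.4, 769.9, 1062 and 703.1 CPM in Ctrl and at 598.8 and 478.2 CPM in LSD1skm-/- muscle, below every Ctrl library. It was 1 of 6 among the 21 partners tested by the labels whose groups did not overlap, against 17.8% of all rows. The log2 fold change was -0.69 by the labels (standard error 0.20, adjusted p = 0.557, edgeR) and -0.78 without that library (standard error 0.17, adjusted p = 0.0483, edgeR). This call was lost with scaling by library size (adjusted p = 0.0508, edgeR) and with Ctrl replicate 1 or 3 or either LSD1skm-/- replicate also left out, at 0.075 to 0.284. *Fermt2*, which encodes kindlin-2, an activator of integrins, was at -0.09 by the labels.

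Of 20 other genes of the basement membrane 19 were tested and 1 rose, without the library labelled Ctrl replicate 4, again beside 5.27% of all rows. *Col18a1*, a collagen of vessel and fiber basement membranes, was at 5.74, 6.51, 4.83 and 11.15 CPM in Ctrl and at 9.18 and 9.94 CPM in LSD1skm-/- muscle. Its log2 fold change was 0.43 by the labels (standard error 0.31, adjusted p = 0.658, edgeR) and 0.75 without that library (standard error 0.16, adjusted p = 0.0406, edgeR), and this call was lost with Ctrl replicate 1 or 3 or either LSD1skm-/- replicate also left out, at 0.0745 to 0.238. *Dag1*, the fiber's other laminin receptor, was at 203.6 to 240.2 CPM in Ctrl and at 217.5 and 225.3 CPM in LSD1skm-/- muscle, with a log2 fold change of -0.04. *Sparc*, a collagen-binding matrix protein gene, was at 0.03 by the labels and 0.28 without that library (adjusted p = 0.261, edgeR).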

How the data were processed

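The labels describe 8 libraries of polyA RNA from mouse muscle, 4 per group, and 6 had a column of counts. The table the authors deposited gives raw counts, the number of reads assigned to each gene, with no normalization. Per the methods, the authors sequenced single-end 50-base reads, removed adapter dimers, mapped to mm10, kept unique alignments and counted reads with htseq-count and HOMER. The submitters' processing notes name bcl2fastq 2.20.0.422, and the aligner is not given in the sources used here. Libraries held 30654828 to 41278769 counts, and no pair agreed within counting error (chi-square over its degrees of freedom was 32.9 to 127). The labels do not say which mouse each library came from, so p-values measure the spread between libraries.

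Rows with a mean count above 50 were tested in R 4.3.3 by the quasi-likelihood method of edgeR 4.0.16, with TMM scaling and the group as sole covariate, and Benjamini-Hochberg adjustment, by the labels and, refitted, without the library labelled Ctrl replicate 4. The script was tested on simulated data. Alternatives used DESeq2 1.42.0, limma-voom (limma 3.58.1), other scalings and filters, and each library left out. Another alternative added a block for the replicate number, where only replicates 1 and 2 of each group bear on the group difference. Ratios used log2 CPM with a prior count of 2. Positions and lengths are from GENCODE vM21 on GRCm38. The members and gene lists were chosen with earlier results of these data known. Named beside the members are genes of these lists with an adjusted p-value under 0.05 and the 2 with the highest mean count per list. One gene named by this rule is not reported here.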

Additional observations from a re-analysis of the deposited data

Results flagged for a closer look

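Among the 4 Ctrl libraries, 2 of 31 results (named genes, ratios and marker sums, on the log2 scale) had a library whose gap to the nearest other exceeded Dixon's 95% critical value as a share of the group's range, where chance gives about 1 in 20. For *Kdm1a* the gap was 0.879 of the range and the library was the one labelled Ctrl replicate 4. For *Itgav* it was 0.832 and the library was Ctrl replicate 1, at 24.96 CPM against 29.52 to 30.53 CPM in the other Ctrl libraries. None of the 10 integrin and laminin genes passed this limit.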

How the results depend on the processing

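The count of members called, at an adjusted p-value of 0.05 unless stated, was 0 by the labels under every alternative tried. Without the library labelled Ctrl replicate 4 it was also 0, except 2 with DESeq2, 1 with library size scaling, 1 with no filter beyond 1 read and 1 with the unadjusted p-value and fold change limits. By those limits 15% of all rows passed. The share of all rows called was not taken for DESeq2, library size scaling or no filter, so those counts cannot be set against a background. Of 540 values of single genes under an alternative, for 20 genes, 494 kept their direction and their side of the threshold, 14 lost the call, 14 gained it and 18 turned in sign. By the labels, with 1 library left out at a time, the log2 fold change of *Itga5* ranged from -0.186 to 0.084 (above 0 without Ctrl replicate 4 and, at 0.049, without LSD1skm-/- replicate 1) and was 0.138 with a replicate block. *Lama5* ranged from -0.295 to 0.300 (below 0 without Ctrl replicate 2, at -0.033, Ctrl replicate 3, at -0.026, and LSD1skm-/- replicate 1) and *Lamc1* from -0.007 to 0.080 (below 0 without Ctrl replicate 1). *Sparc* ranged from -0.090 to 0.277 (at or below 0 without Ctrl replicates 1, 2 and 3 and LSD1skm-/- replicate 2, at -0.050, -0.090, -0.000 and -0.037), and *Dag1* was 0.004 with library size scaling. Without the library labelled Ctrl replicate 4, *Lama4* ranged from -0.105 to 0.064 (above 0 without Ctrl replicate 2 and, at 0.034, without LSD1skm-/- replicate 2) and was 0.033 with library size scaling, where *Itgb1* was 0.026. There *Itga5* ranged from -0.043 (without LSD1skm-/- replicate 2) to 0.195 and *Lama5* from -0.129 (without LSD1skm-/- replicate 1) to 0.463. The causes were not tested.

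The ratio of *Itga7* over *Itga1* kept its direction under every alternative, from 0.444 to 0.632 on the log2 scale, and that of *Lama2* over *Lama4* from 0.077 to 0.350. The *Itga7* share differed by 6.76 to 8.58 percentage points and the *Lama2* share by 0.192 to 4.08. Replicate numbers gave no sign of pairing (correlation of deviations -0.233 for number 1 and -0.033 for number 2). With a replicate block the *Itga7* over *Itga1* difference was 0.467 and that of *Lama2* over *Lama4* 0.290, and 0 members passed. In edgeR with that block *Itga3* passed by the labels (adjusted p = 0.0118), where only replicates 1 and 2 of each group bore on the difference. The library labelled Ctrl replicate 4, in which *Itga3* was highest, had no part in that difference. *Col18a1* did not pass with the block in the comparison without that library (adjusted p = 0.0722, edgeR). Where 1 LSD1skm-/- library was left out, the other was assumed to vary as Ctrl does. Having 2 LSD1skm-/- libraries limits every comparison.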

Other observations

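One further integrin, *Itgae*, was singled out after its values were seen. It encodes the αE chain, known from T cells that lodge in epithelia. It had 16, 12 and 13 reads in Ctrl replicates 1 to 3, 66 in the library labelled Ctrl replicate 4, and 80 and 123 in the LSD1skm-/- libraries, that is 0.462, 0.369, 0.376 and 1.505 CPM against 2.51 and 3.26 CPM. The groups did not overlap, as for 17.8% of all rows by the labels. Its mean count was above 50 there only through the LSD1skm-/- libraries, so the filter favoured this lack of overlap. The library labelled Ctrl replicate 4 lay between the other Ctrl libraries and the LSD1skm-/- libraries. As 1 of the further integrins, *Itgae* did not pass by the labels (adjusted p = 0.557, edgeR). Without that library its mean count was not above 50, so it was not among the genes tested there. Since *Itgae* was chosen for this pattern, no other test is given. *Ptprc*, the general leukocyte marker among the immune markers, had another order of libraries, with 326, 255, 38 and 90 reads in Ctrl and 70 and 87 in the LSD1skm-/- libraries. Whether reads of a neighbouring gene add to the *Itgae* row was not tested.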
